A study of Homo sapiens with 4 samples.

Results

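The genes described here are the galactosyl-, sialyl- and fucosyltransferases of HCT116 cells, an established human colon cancer line, together with the N-acetylglucosaminyltransferases of the B3GNT family. They were the 52 genes of 20263 in the count table whose symbol is B3GALT, B4GALT, B3GNT, ST3GAL, ST6GAL, ST6GALNAC, ST8SIA or FUT followed by a number. Cells received N_12 for 24 h, or DMSO as the control, in medium with 10% serum, and mRNA libraries were sequenced from 2 samples of each (replicates 1 and 2). The series title calls N_12 a derivative of nilotinib, a kinase inhibitor. The treatment tag of the N_12 samples holds another code, HJJ_3_5, and no dose is given in the labels. The labels do not say whether replicates were separate cultures, so each p-value reflects the variation among these 4 samples alone, and that variation may be technical. The family was chosen because B3GALT5 and ST6GAL1 had been seen to be higher with N_12 in these same libraries. Their values are therefore given as a description, with no test.

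These enzymes sit in the Golgi apparatus, and a few in the endoplasmic reticulum, and each moves a single sugar from an activated nucleotide donor onto a growing glycan. B3GNT and B4GALT enzymes alternate to extend chains of N-acetylglucosamine and galactose. B3GALT enzymes cap or divert those chains with galactose in another linkage. ST enzymes end them with sialic acid and FUT enzymes decorate them with fucose. In the colon they make the Lewis antigens and sialylated mucin glycans that are used as tumour markers.

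Total counts were 41717938 and 39865327 in N_12 replicates 1 and 2, against 31120459 and 29769568 in DMSO replicates 1 and 2. Values are CPM, counts scaled to a common library size after TMM, a correction for library composition. The summed level of 10 epithelial markers was 3421 to 4070 CPM with N_12 and 4099 to 5065 CPM with DMSO. Of the 7 tested ones 0 were called by edgeR and 4 had an unadjusted p under 0.05. The shares of all tested genes were 2.25% and 21.8%. The log2 fold changes of the 7 markers were -0.42 for EPCAM, -0.36 for KRT8, 0.01 for KRT18 and -0.32 for KRT19. They were -0.52 for CDH1, -0.11 for CLDN4 and 0.62 for CDX2. CLDN4 differed widely within each group, at 70.6 and 376 CPM with N_12, against 458 and 24.3 CPM with DMSO. VIL1, CEACAM5 and LGALS4 of differentiated colon were nearly absent, at 0 to 9 counts in every library. PTPRC and CD3E of leukocytes and COL1A2, DCN and LUM of fibroblasts had no count in any library. The summed level of 6 leukocyte markers was 2.36 to 2.75 CPM with N_12 and 1.29 to 1.97 CPM with DMSO. That of 6 endothelial markers was 0.878 to 2.50 CPM with N_12 and 1.61 to 1.67 CPM with DMSO. Of 6 fibroblast markers COL1A1 alone was tested, at 57.5 CPM with N_12 and 62.6 CPM with DMSO as means, and the sum was 55.5 to 60.2 CPM with N_12 and 61.2 to 64.9 CPM with DMSO. Whether these levels have a part in the results was not tested.

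Of the 52 genes, 39 had enough counts to be tested. A further 5 had no count in any library, namely B3GNT6, ST6GAL2, ST8SIA1, ST8SIA3 and ST8SIA4. The other 8, B3GALT2, B3GNT8, FUT5, FUT6, FUT7, FUT9, ST6GALNAC1 and ST8SIA2, had too few for a test. A count of 0 in a library allows a level of up to 0.0712 to 0.0736 CPM with N_12 and 0.0984 to 0.102 CPM with DMSO, taking 3 counts as the limit and covering counting error only.

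The upstream sequences of B3GALT5 and ST6GAL1 are shown because these are the members with the highest fold changes, and because B3GALT5 has 2 start sites of different composition. They are the 250 bases before each start in RefSeq (build GRCh38.p14). Capitals mark motif letters, which read as the reverse complement where the match is on the minus strand.
B3GALT5 start 1 (chr21:39612690-39612939, plus strand): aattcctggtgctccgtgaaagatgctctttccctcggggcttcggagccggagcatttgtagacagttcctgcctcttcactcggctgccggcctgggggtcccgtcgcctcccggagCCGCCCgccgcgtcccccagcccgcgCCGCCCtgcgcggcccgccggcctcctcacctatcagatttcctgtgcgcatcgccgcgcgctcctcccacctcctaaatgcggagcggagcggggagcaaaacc
B3GALT5 start 2 (chr21:39642146-39642395, plus strand): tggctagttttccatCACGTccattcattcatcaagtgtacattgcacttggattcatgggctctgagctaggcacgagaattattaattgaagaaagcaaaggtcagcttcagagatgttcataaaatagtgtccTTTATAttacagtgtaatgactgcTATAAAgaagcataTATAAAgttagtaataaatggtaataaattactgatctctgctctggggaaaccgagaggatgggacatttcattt
ST6GAL1 start 1 (chr3:186930276-186930525, plus strand): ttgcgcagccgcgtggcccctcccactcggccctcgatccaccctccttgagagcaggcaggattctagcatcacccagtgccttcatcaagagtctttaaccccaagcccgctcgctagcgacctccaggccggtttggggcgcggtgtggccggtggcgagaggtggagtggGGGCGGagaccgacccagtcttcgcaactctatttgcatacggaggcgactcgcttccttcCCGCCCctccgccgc
Both strands were searched for 6 motifs, each set beside its share of the 35116 RefSeq windows of this length. GTTAAT, a half-site of HNF1, a factor of gut and liver epithelium, occurs in 6.23% of them. TATAAA, the TATA box, occurs in 10.7% and is the motif of classical core promoters. CCAAT, bound by NF-Y, occurs in 32.0% of the windows. GGGCGG, the GC box bound by SP1, occurs in 42.6% of the windows. CACGTG, the E-box, occurs in 6.34% of the windows. ACGTG, the core bound by hypoxia-inducible factor (HIF), lies inside the E-box and occurs in 18.5% of the windows. B3GALT5 start 1 held 2 GC boxes, a GC content of 68.8% and 28 CG pairs. B3GALT5 start 2 held 3 TATA boxes and 1 HIF core, with a GC content of 36.4% and 3 CG pairs. Only 7.22% of the RefSeq windows had a lower GC content than that one. ST6GAL1 held 2 GC boxes, with a GC content of 65.6% and 22 CG pairs. None of the 3 windows held the HNF1 half-site, CCAAT or the E-box. A match of letters is a description and not a binding site, and a table of counts per gene does not show which start was used.

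B3GALT5 makes type 1 chains by adding galactose to N-acetylglucosamine, the base on which the Lewis a antigens and CA19-9 are built. B3GALT5 (ENSG00000183778) had 8.88 and 9.17 CPM with N_12, against 2.46 and 2.42 CPM with DMSO. Its N_12 libraries lay close together and well above the DMSO libraries, which were also close together. The means were 9.03 ± 0.209 CPM with N_12 and 2.44 ± 0.0316 CPM with DMSO (SD, n = 2 each). This was a 3.70-fold difference (log2 fold change 1.89). Leaving out any 1 library gave log2 fold changes of 1.86 to 1.90. As the gene was chosen from these libraries, that range is no support. In bulk libraries a change in how many cells hold a transcript and a change in transcripts per cell cannot be told apart.

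The other B3GALT genes lay between -0.82 and 0.62 on the log2 fold change scale. B3GALT6, which builds the linker that joins glycosaminoglycans to proteins, had 11.0 and 13.4 CPM with N_12, against 7.51 and 8.40 CPM with DMSO. Its groups did not overlap, but edgeR's quasi-likelihood test, with p-values adjusted over all tested genes by Benjamini-Hochberg, did not call it (log2 fold change 0.62, 95% interval 0.16 to 1.07, adjusted p = 0.134). B3GALT1, which also acts on N-acetylglucosamine, had 1.42 and 1.01 CPM with N_12, against 2.36 and 1.94 CPM with DMSO (log2 fold change -0.82, 95% interval -1.56 to -0.08, adjusted p = 0.195), so its N_12 libraries were the lower ones. Of its 50-base stretches 8.01% recur in transcripts of other genes. B3GALT4, the synthase of the ganglioside GM1, had 0.427 and 0.736 CPM with N_12, against 0.656 and 0.884 CPM with DMSO, and the groups overlapped. B3GALT9 had 1.07 and 1.01 CPM with N_12, against 1.08 and 1.19 CPM with DMSO, but 16.1% of its exon bases lie opposite FBXW2, which stood at 123 to 134 CPM in the 4 libraries. B3GALT2 had 4 and 0 counts with N_12, against 0 and 0 with DMSO. B3GALT5 itself shares no exon bases with another annotated gene, and 0.0211% of its 50-base stretches recur in transcripts of another gene.

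ST6GAL1 puts sialic acid onto position 6 of the terminal galactose of N-glycans, on proteins such as integrins and death receptors. ST6GAL1 (ENSG00000073849) had 18.5 and 19.5 CPM with N_12, against 6.07 and 6.09 CPM with DMSO. Again each pair of libraries was tight and the pairs were far apart. The means were 19.0 ± 0.714 CPM with N_12 and 6.08 ± 0.0150 CPM with DMSO (SD, n = 2 each). This was a 3.13-fold difference (log2 fold change 1.65). Leaving out any 1 library gave log2 fold changes of 1.60 to 1.67, which again is a description only. ST6GAL1 shares no exon bases and no 50-base stretch with other annotated transcripts. Its only close paralog, ST6GAL2, had no count in any library.

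**Figure D1:**
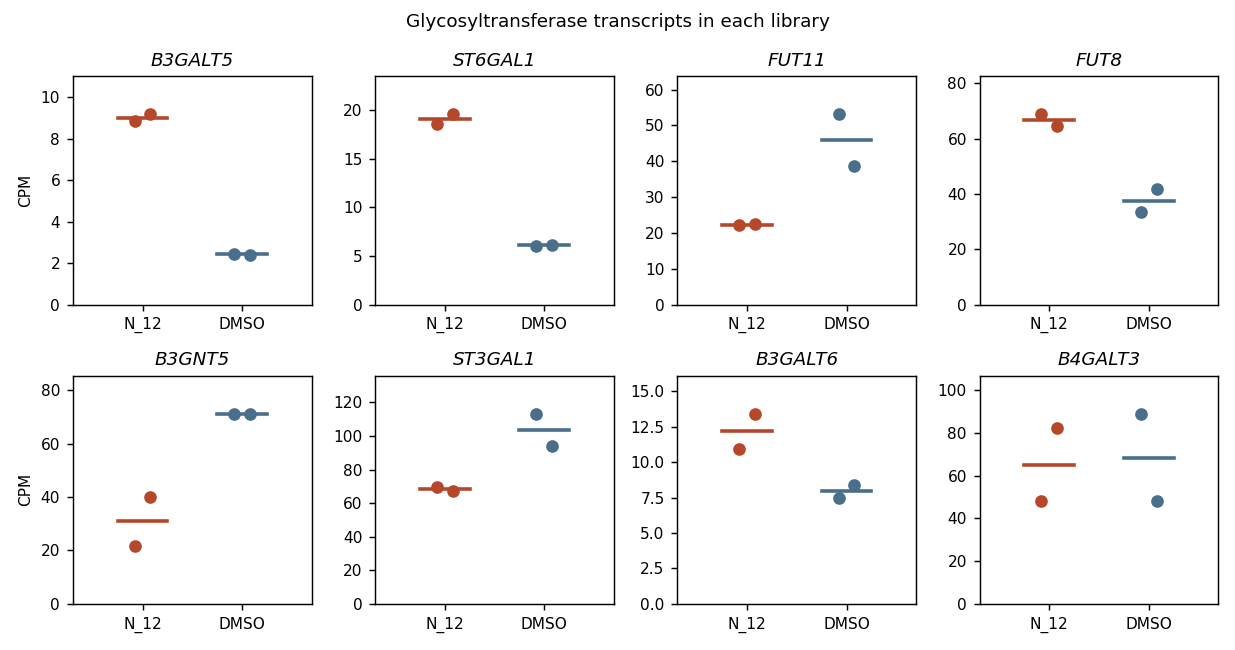
CPM (scaled counts, linear axis from 0) of 8 members in each library, N_12 on the left and DMSO on the right of each panel; points are libraries and bars are means of 2. B3GALT5 and ST6GAL1 were higher in both N_12 libraries, FUT11 and B3GNT5 lower, and B4GALT3 spread as widely within each group (48.0 and 82.2 CPM with N_12, 89.0 and 48.1 CPM with DMSO) as between them.

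Across the whole table edgeR called 317 of 14105 genes (2.25%), 0.822% of the tested genes as higher and 1.43% as lower with N_12. Of the 37 tested members besides B3GALT5 and ST6GAL1, 1 was called, FUT11, which fell. Among these 37, 19 had log2 fold changes above 0 and 18 below, and their median was 0.04, beside 0.01 over all tested genes. The 95% interval lay wholly above 0 for 3 of these 37 and wholly below 0 for 7, beside 11% and 10.8% of all tested genes. The groups did not overlap for 10 of the 37 on the higher side and 12 on the lower side, beside 27.9% and 26.8% of all tested genes. Of the members besides B3GALT5 and ST6GAL1, DESeq2 called 5 (8.68% of all genes), the fit with a replicate block 3 (6.83%), limma-voom 0 (0.929%), and edgeR with plain dispersions 0 (0.929%). With library totals in place of TMM edgeR called 2 (2.16%), with relative log expression 1 (2.28%), without the expression filter 2 (2.2%) and with a stricter filter 2 (2.96%). It called 0 (1.63%) without DMSO replicate 1 and 2 (3.11%) without DMSO replicate 2. Without N_12 replicate 1, or without N_12 replicate 2, edgeR called 0 genes in the whole table and so 0 members, while 12 and 7 of these members had an unadjusted p under 0.05. With all libraries 10 of the 37 had one, beside 21.8% of all tested genes.

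**Figure D2:**
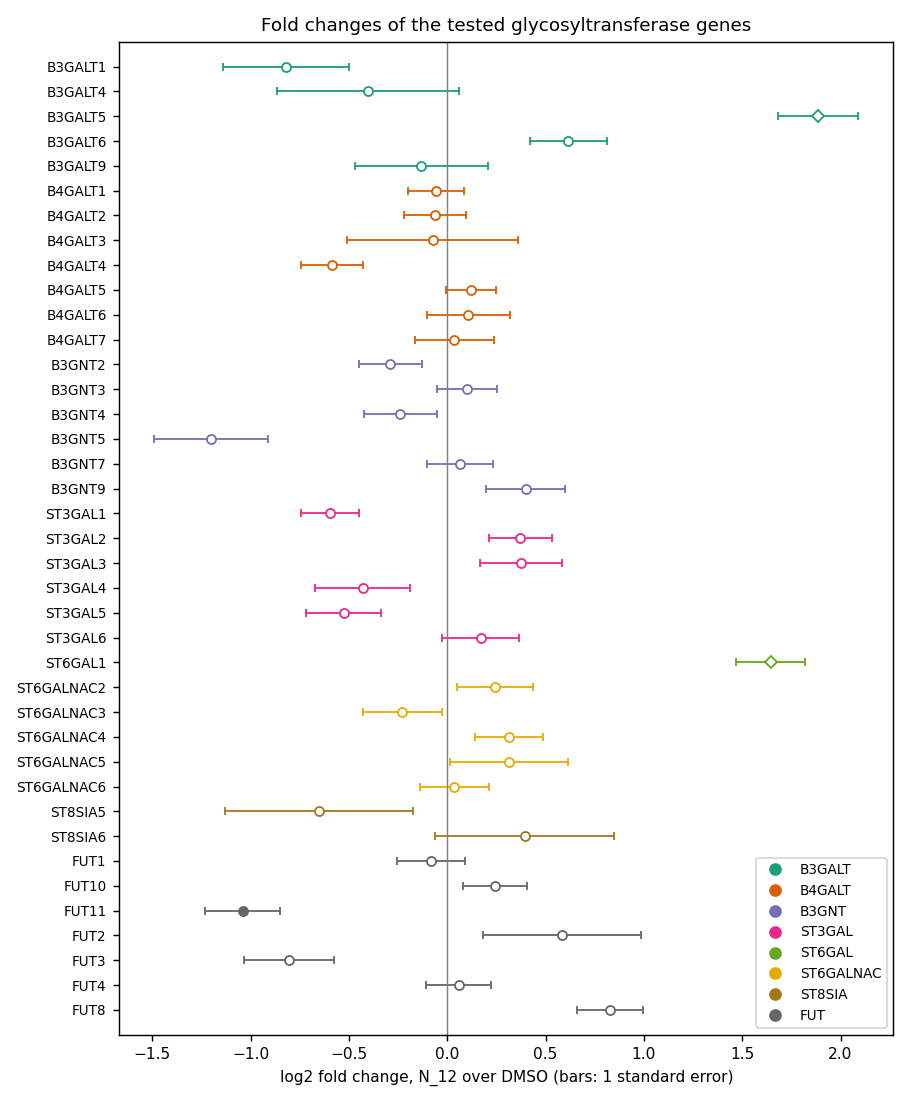
Log2 fold change (N_12 over DMSO, horizontal axis) of the 39 tested members, grouped and coloured by subfamily, with bars of 1 standard error. The filled point is FUT11, called by edgeR. The open diamonds are B3GALT5 and ST6GAL1, for which no test is given and whose bars are not read as support. B3GALT5 (1.89) and ST6GAL1 (1.65) lie to the right of all other members, and FUT11 (-1.04) and B3GNT5 (-1.20) lie farthest to the left.

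Among the FUT members, FUT10 and FUT11 are those of the endoplasmic reticulum, and FUT11 is listed among hypoxia-responsive genes. FUT11 (ENSG00000196968) had 22.1 and 22.5 CPM with N_12, against 53.1 and 38.7 CPM with DMSO. The N_12 libraries were nearly equal and the DMSO libraries were farther apart, with replicate 1 the higher. The log2 fold change was -1.04 (SE 0.19, adjusted p = 0.0390, edgeR). Without DMSO replicate 1 it was -0.79 (adjusted p = 0.140), and the call also ended with limma-voom (adjusted p = 0.0734), with plain dispersions in edgeR (adjusted p = 0.0708), and with either N_12 replicate left out (adjusted p = 0.170 and 0.184). AC022400.8, a gene not among those listed in the table, lies opposite 11.7% of its exon bases.

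FUT8 adds the core fucose of N-glycans, and FUT8-AS1, a gene not among those counted, lies opposite 12.3% of its exon bases. FUT8 (ENSG00000033170) had 68.7 and 64.8 CPM with N_12, against 33.3 and 41.8 CPM with DMSO. Its groups were apart, but edgeR did not call it (log2 fold change 0.83, 95% interval 0.44 to 1.22, adjusted p = 0.0515). DESeq2 did (adjusted p = 0.000719), as did 4 other settings on all 4 libraries, with adjusted p from 0.00854 to 0.0466. Limma-voom did not (adjusted p = 0.0754), nor did edgeR with relative log expression (adjusted p = 0.0527) or plain dispersions (adjusted p = 0.0841). The log2 fold change was 0.675 without DMSO replicate 1 and 1.003 without DMSO replicate 2. FUT3, the Lewis enzyme that completes Lewis a on type 1 chains, had 2.54 and 3.09 CPM with N_12, against 5.21 and 4.63 CPM with DMSO. Its N_12 libraries were the lower ones, and the test did not call it (log2 fold change -0.81, 95% interval -1.34 to -0.27, adjusted p = 0.107). Of its 50-base stretches 16.2% recur in other genes, mainly FUT5, FUT6 and AC024592.3, a locus that overlaps FUT5, so its counts are uncertain.

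FUT1 and FUT2 make the H antigen of the ABO system. FUT1 had 18.1 and 17.4 CPM with N_12, against 20.6 and 17.0 CPM with DMSO, with overlapping groups. FUT2, the secretor enzyme of mucosal epithelium, had 1.90 and 3.9985 CPM with N_12, against 2.33 and 1.60 CPM with DMSO, and the groups overlapped. Of its 50-base stretches 7.17% recur in other genes, mainly SEC1P. FUT4, which makes Lewis x, had 15.6 and 15.5 CPM with N_12, against 15.5 and 14.4 CPM with DMSO, a log2 fold change of 0.06. FUT10 had 17.9 and 16.9 CPM with N_12, against 14.7 and 14.7 CPM with DMSO (log2 fold change 0.24, 95% interval -0.14 to 0.62). The groups of FUT10 did not overlap. PIWIL4 covers 11.3% of the FUT4 exon bases on the same strand and stood at 1.21 to 1.96 CPM in the 4 libraries.

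FUT5, FUT6 and FUT7 stayed at 0 to 11 counts in every library, and 82.5% of the FUT5 exon bases are shared with AC024592.3. FUT9, an enzyme of Lewis x known from brain, had 8 and 7 counts with N_12, against 0 and 0 with DMSO. Over each group this was 15 counts with N_12 and 0 with DMSO. Set against a limit of 3 counts over the DMSO group, 0.0501 CPM, the 0.181 CPM of the N_12 group was 3.61-fold higher. That limit covers counting error of the DMSO group only, not that of the 15 N_12 counts or variation between libraries. FUT9 failed the expression filter, and without that filter its adjusted p was 0.206.

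Among the ST3GAL enzymes, which add sialic acid to position 3 of galactose, edgeR called 0 of 6, with 3 at an unadjusted p under 0.05 (21.8% of all tested genes). ST3GAL1, which caps core 1 O-glycans, had 69.9 and 67.4 CPM with N_12, against 113 and 94.3 CPM with DMSO. Both N_12 libraries were the lower ones (log2 fold change -0.60, 95% interval -0.94 to -0.25, adjusted p = 0.0818); DESeq2 called it (adjusted p = 0.00871). ST3GAL2, which acts on the same core and on gangliosides, had 48.2 and 57.7 CPM with N_12, against 41.5 and 40.4 CPM with DMSO (log2 fold change 0.37, 95% interval 0.00 to 0.74, adjusted p = 0.227). The signs of these 2 enzymes of the same core were thus opposite, though neither passed the test.

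ST3GAL5, the synthase of the ganglioside GM3, had 11.5 and 9.17 CPM with N_12, against 15.2 and 14.7 CPM with DMSO (log2 fold change -0.53, 95% interval -0.97 to -0.09, adjusted p = 0.167). ST3GAL3, ST3GAL4 and ST3GAL6 act on the galactose of type 1 or type 2 chains. ST3GAL4 had 8.9971 and 12.9 CPM with N_12, against 16.9 and 12.6 CPM with DMSO, with overlapping groups. ST3GAL3 had 6.77 and 6.26 CPM with N_12, against 5.51 and 4.52 CPM with DMSO (log2 fold change 0.38, 95% interval -0.11 to 0.86), groups that did not overlap. It shares 10.3% of its exon bases on the same strand with genes not among those counted. ST3GAL6 had 12.7 and 10.6 CPM with N_12, against 9.41 and 11.3 CPM with DMSO, with overlapping groups. DCBLD2, which lies opposite 5.44% or less of its exon bases, stood at 865 to 930 CPM with N_12 and 567 to 599.6 CPM with DMSO, and whether the counting used strand is not given in the labels.

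ST6GALNAC enzymes sialylate the N-acetylgalactosamine of O-glycans and gangliosides. Of 5 tested, edgeR and DESeq2 each called 0, and 0 had an unadjusted p under 0.05 by edgeR, beside 21.8% of all tested genes. ST6GALNAC4, the most abundant of them per length, had 52.5 and 64.0 CPM with N_12, against 51.1 and 42.8 CPM with DMSO (log2 fold change 0.31, 95% interval -0.09 to 0.71). ST6GALNAC6 had 45.2 and 56.2 CPM with N_12, against 53.8 and 45.0 CPM with DMSO, with overlapping groups, and shares 47.0% of its exon bases with a gene not listed in the table. ST6GALNAC2 had 7.17 and 7.02 CPM with N_12, against 6.30 and 5.68 CPM with DMSO, but 38.5% of its exon bases are shared with ENSG00000284526, which stood at 66.0 to 88.3 CPM. ST6GALNAC3 had 4.80 and 4.64 CPM with N_12, against 5.64 and 5.41 CPM with DMSO (log2 fold change -0.23, 95% interval -0.69 to 0.23). ST6GALNAC5 had 1.95 and 2.40 CPM with N_12, against 2.03 and 1.46 CPM with DMSO. ST6GALNAC1, which makes the sialyl-Tn antigen, had 2 counts in N_12 replicate 2 and none elsewhere.

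ST8SIA enzymes add sialic acid to sialic acid and make GD3 and polysialic acid, which are best known from the nervous system. ST8SIA5 had 0.522 and 0.491 CPM with N_12, against 1.05 and 0.544 CPM with DMSO, and ST8SIA6 had 0.570 and 0.883 CPM with N_12, against 0.492 and 0.612 CPM with DMSO. ST8SIA2 had 2 counts in DMSO replicate 1 and none in the other libraries. ST8SIA1, ST8SIA3 and ST8SIA4 were at 0 throughout. Groups did not overlap for ST8SIA5, where N_12 was lower, and overlapped for ST8SIA6.

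B4GALT enzymes add galactose to N-acetylglucosamine, xylose or glucosylceramide. B4GALT5, a synthase of lactosylceramide, was the most abundant member per length and had 459 and 429 CPM with N_12, against 424 and 393 CPM with DMSO (log2 fold change 0.12, 95% interval -0.17 to 0.41), both N_12 libraries being slightly above the DMSO libraries. B4GALT1, which galactosylates N-glycans, had 107 and 91.4 CPM with N_12, against 106 and 100.2 CPM with DMSO, with overlapping groups. B4GALT2 had 57.8 and 66.5 CPM with N_12, against 69.7 and 60.2 CPM with DMSO, again with overlap. B4GALT3 had 48.0 and 82.2 CPM with N_12, against 89.0 and 48.1 CPM with DMSO. In each group of B4GALT3 the libraries differed more than the group means did, and its 95% interval was wide (-1.29 to 1.15). PPOX lies opposite 28.7% of its exon bases and had 13.3 to 18.1 CPM with N_12 and 17.8 to 18.2 CPM with DMSO.

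B4GALT4, which acts on sulphated N-acetylglucosamine, had 15.7 and 17.0 CPM with N_12, against 24.3 and 24.7 CPM with DMSO. Its groups were tight and apart, with N_12 lower (log2 fold change -0.59, 95% interval -0.95 to -0.22, adjusted p = 0.0966); DESeq2 called it (adjusted p = 0.0241). B4GALT6, the other lactosylceramide synthase, had 23.9 and 16.3 CPM with N_12, against 18.1 and 19.2 CPM with DMSO. B4GALT7, which adds galactose to the glycosaminoglycan linker before B3GALT6 acts, had 13.8 and 16.2 CPM with N_12, against 16.6 and 12.7 CPM with DMSO. Groups overlapped for both B4GALT6 and B4GALT7.

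Most B3GNT enzymes add N-acetylglucosamine to galactose. B3GNT5, which starts the lacto- and neolacto-series of glycolipids, had 21.8 and 40.0 CPM with N_12, against 71.1 and 71.0 CPM with DMSO. The DMSO libraries were nearly equal, and the N_12 libraries were lower and far from each other. Its log2 fold change of -1.20 was farther from 0 than that of FUT11, yet edgeR did not call it (95% interval -1.91 to -0.49, adjusted p = 0.0947). DESeq2 did (adjusted p = 0.00115). The value was -1.71 without N_12 replicate 2 and -0.85 without N_12 replicate 1. MCF2L2 lies opposite 16.2% of the B3GNT5 exon bases and stood at 3.98 to 4.61 CPM, far under B3GNT5.

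The remaining B3GNT genes lay within 0.40 of 0 on the log2 fold change scale. B3GNT2, the main enzyme of poly-N-acetyllactosamine, had 40.8 and 35.8 CPM with N_12, against 49.6 and 44.0 CPM with DMSO (log2 fold change -0.29, 95% interval -0.66 to 0.08). B3GNT3, which extends core 1 O-glycans, had 31.4 and 33.3 CPM with N_12, against 31.0 and 29.4 CPM with DMSO (log2 fold change 0.10, 95% interval -0.25 to 0.45). Groups did not overlap for either, in opposite directions. B3GNT4 had 10.3 and 12.7 CPM with N_12, against 13.6 and 13.4 CPM with DMSO, B3GNT7 of keratan sulphate had 15.4 and 14.5 CPM with N_12, against 14.9 and 13.7 CPM with DMSO, and B3GNT9 had 6.84 and 5.89 CPM with N_12, against 4.79 and 4.86 CPM with DMSO. DIABLO lies opposite part of B3GNT4 and PHAF1 opposite part of B3GNT9, at 36.7 to 55.3 and 30.6 to 34.0 CPM over the 4 libraries. B3GNT8 had 5 and 11 counts with N_12, against 14 and 4 with DMSO, and B3GNT6, the core 3 enzyme of normal colon, had no count.

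Levels of different genes were compared per kilobase of annotated exon. On this scale B4GALT5 led, at 94.0 ± 4.58 CPM per kb with N_12 and 86.5 ± 4.67 CPM per kb with DMSO (SD, n = 2 each). B4GALT1 to B4GALT3, ST6GALNAC4, B3GNT2 and B3GNT3 followed in both groups, at 13.4 to 22.2 CPM per kb with N_12 and 13.1 to 21.0 CPM per kb with DMSO. Within that block B4GALT3 differed by more between replicates than from its neighbours, so the order inside it is not resolved. B3GALT5 ranked 32nd with N_12 and 38th with DMSO, at 0.630 and 0.170 CPM per kb, and ST6GAL1 ranked 26th and 30th, at 2.08 and 0.664 CPM per kb. The merged exons of B3GALT5 span 14319 bases with all annotated transcripts, which lowers its value on this scale if only the shorter ones are made.

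**Figure D3:**
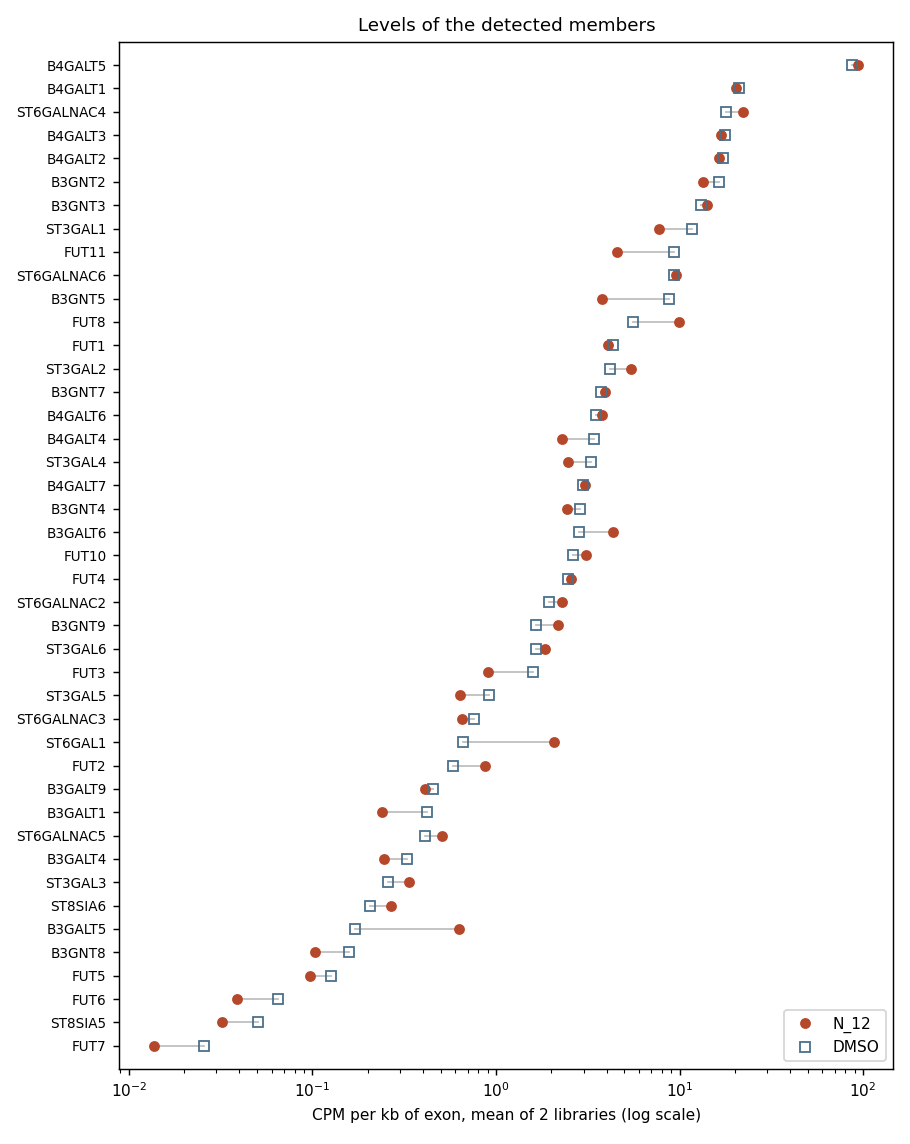
Mean level per kilobase of exon (log axis) of the 43 members with counts in both groups, ordered by the DMSO level; filled circles are N_12 and open squares DMSO, each a mean of 2 libraries. B4GALT5 stands alone at the top, and ST6GAL1 and B3GALT5 show the longest gaps to the right while remaining below 3 CPM per kb.

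The share of each enzyme in its class was then read per library. Of the summed ST3GAL and ST6GAL level per kilobase, ST6GAL1 made up 10.1% in each N_12 library, against 2.74% and 3.14% in the DMSO libraries. ST3GAL1 made up 39.6% and 36.0% with N_12, against 52.9% and 50.2% with DMSO. The class total was 19.96 and 21.1 CPM per kb with N_12, against 24.2 and 21.2 CPM per kb with DMSO.

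In the FUT class the leading gene per kilobase differed between the groups. This order depends on the annotated exon lengths, 6700 bases for FUT8 and 4910 for FUT11. In plain CPM, FUT8 (41.8) lay above FUT11 (38.7) in DMSO replicate 2. FUT8 held 39.1% and 37.0% of the summed level per kilobase with N_12, against 17.6% and 24.8% with DMSO. FUT11 held 17.2% and 17.5% with N_12, against 38.2% and 31.2% with DMSO. The class total of 26.2 and 26.2 CPM per kb with N_12 lay inside the 25.2 to 28.3 CPM per kb of DMSO. In the B3GALT class B3GALT6 kept the largest share, at 71.7% and 75.5% with N_12 and 66.5% and 68.1% with DMSO. B3GALT5 made up 11.4% and 10.1% there, against 4.28% and 3.85% with DMSO. These shares are descriptions, and none was tested.

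**Figure D4:**
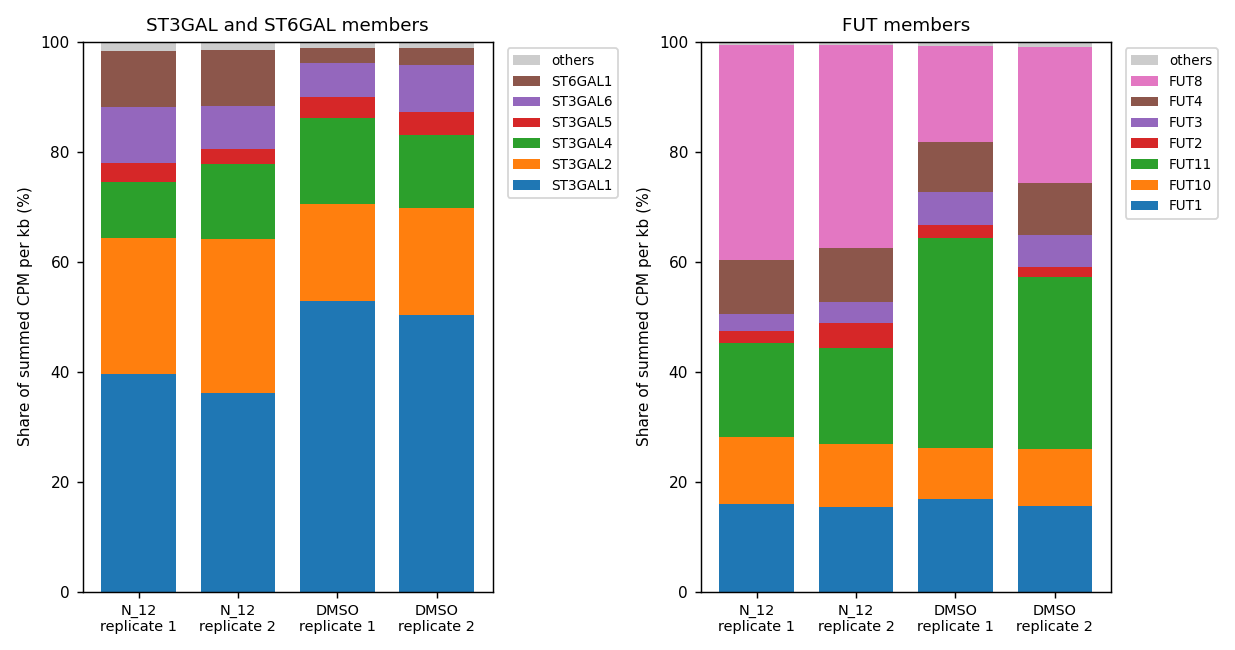
Share (%) of each gene in the summed level per kilobase of its class in each library, with ST3GAL and ST6GAL members on the left and FUT members on the right; genes under 2% in every library are pooled as others. ST6GAL1 takes 10.1% of the left bars with N_12 and 2.74% and 3.14% with DMSO, and on the right FUT8 is the largest block with N_12 and FUT11 with DMSO.

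The genes around these enzymes were read from 9 lists of glycosylation genes, of which 103 were tested. Of these 103, edgeR called 0 higher and 1 lower, beside 0.822% and 1.43% of all genes, and 19 had an unadjusted p under 0.05, beside 21.8% of all genes. DESeq2 called 6, beside 8.68% of all genes. The gene called lower was GALNT3, which starts mucin-type O-glycans, at 5.39 and 5.25 CPM with N_12, against 12.2 and 10.5 CPM with DMSO (log2 fold change -1.09, SE 0.19, adjusted p = 0.0357, edgeR). Its N_12 libraries lay well below the DMSO libraries, but the call ended without DMSO replicate 1 (-0.98, adjusted p = 0.109), with limma-voom (adjusted p = 0.0587), with plain dispersions (adjusted p = 0.0616) and without either N_12 replicate. The median of the 103 log2 fold changes was -0.09, with 40 above 0, beside a median of 0.01 and 51% above 0 over all tested genes.

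Of 21 tested genes that start or branch mucin-type O-glycans, 6 had log2 fold changes above 0 (median -0.15). EdgeR called 1 of the 21, and 7 had an unadjusted p under 0.05, beside 2.25% and 21.8% of all tested genes. GCNT3, a core 2 and core 4 branching enzyme of mucin-secreting cells, had 3.73 and 4.66 CPM with N_12, against 1.90 and 1.67 CPM with DMSO (log2 fold change 1.23, SE 0.25, adjusted p = 0.0534). Over the 12 alternatives its adjusted p ran from 0.00398 to 0.195, with 4 of them calling it. Genes of this list with an unadjusted p under 0.05 and lower levels, besides GALNT3, were GALNT18 (-0.74, adjusted p = 0.0772), GCNT1 (-0.59, adjusted p = 0.121), C1GALT1 (-0.58, adjusted p = 0.206) and C1GALT1C1 (-0.46, adjusted p = 0.196), and GALNT5 was higher (0.36, adjusted p = 0.225). In the list of N-glycan branching and trimming edgeR called 0 of 12 (median -0.16). An unadjusted p under 0.05 was found for 1 of them, beside 21.8% of all tested genes. The mannose-trimming MAN1A1 stood at -0.36 and the branching enzyme MGAT4A at -0.35. Among 9 glycolipid and chain-capping transferases 3 had an unadjusted p under 0.05, beside 21.8% of all tested genes (median -0.19). The 2 smallest p were those of B4GALNT1, the synthase of GM2 and GD2, and UGCG, which makes glucosylceramide. Their log2 fold changes were 0.60 (adjusted p = 0.104, edgeR) and -0.51 (adjusted p = 0.160, edgeR).

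The 5 genes of CMP-sialic acid synthesis and transport, which serve all sialyltransferases, summed to 198 CPM in each N_12 library, against 219 to 219.9 CPM with DMSO. The lowest p there were those of NANP (-0.43, adjusted p = 0.168) and CMAS (-0.32, adjusted p = 0.268). For the 8 genes of GDP-fucose supply and protein O-fucosylation the median was -0.05, with the GDP-fucose carrier SLC35C1 at 0.52 (adjusted p = 0.134) and SLC35C2 at -0.45 (adjusted p = 0.206). Of 17 genes of UDP-sugar supply 6 lay above 0 (median -0.09), with the Golgi carriers SLC35A3 at -0.69 (adjusted p = 0.0846) and SLC35A2 at -0.70 (adjusted p = 0.165). SLC35A2, the UDP-galactose carrier, had 26.0 and 42.4 CPM with N_12, against 58.9 and 51.9 CPM with DMSO.

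The remaining 3 lists held no gene called by edgeR, with 1, 2 and 0 genes at an unadjusted p under 0.05, beside 21.8% of all tested genes. Among 10 tested sialidases, fucosidases and galactosidases the median was -0.10, with HEXA at -0.47 (adjusted p = 0.121) and NEU4 at -0.86 (adjusted p = 0.386). Among 17 Golgi transport and acidity factors 11 lay above 0 (median 0.10), with COG2 at 0.39 (adjusted p = 0.206) and GORASP2 at 0.31 (adjusted p = 0.228). The 4 proteases of transferase cleavage had a median of 0.15, with SPPL2A at 0.37 (adjusted p = 0.272) and SPPL3, which releases many Golgi transferases, at 0.22 (adjusted p = 0.401).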

How the data were processed

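The authors deposited whole-number counts per gene in a single table with human Ensembl identifiers. Libraries were made with an mRNA kit, per the labels' protocols. How reads were aligned and counted, and whether strand was used, is not given in the sources used here. Per the submitters' processing notes the builds were GRCm38 and mm10, which are mouse builds, so no gene coordinates are printed, and promoter windows carry the build of RefSeq. Symbols were matched to 20148 of the 20263 identifiers. Exon lengths, exon overlap and shared 50-base stretches came from GENCODE release 29. RefSeq promoter entries existed for 37 of the 52 members. Protein sequences were not used here.

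R 4.3.3 and edgeR 4.0.16 were used with TMM factors (0.98 to 1.023), the edgeR expression filter (14105 genes kept), robust dispersions and a two-sided quasi-likelihood test of N_12 against DMSO. Genes were called at a Benjamini-Hochberg adjusted p under 0.05 over all tested genes. Standard errors were derived from each fold change and its F value. The steps were checked on simulated counts. Alternatives used limma 3.58.1 (voom) and DESeq2 1.42.0. Same-group libraries differed beyond counting noise, with a chi-square of 57.2 (N_12) and 36.5 (DMSO) for each degree of freedom, so all 4 entered as separate samples. Groups came from sample titles.

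The members, lists and settings were chosen with earlier results of these data known. CPM in every library was planned for called members, the B3GALT and ST6GAL families and members averaging at least 5 CPM, and is given for every tested member since depth differs between groups; members too low to test are given by counts. Of the lists, the called gene is named, and otherwise the 2 genes of smallest p in each list. GCNT3 and the other genes of its list under an unadjusted p of 0.05 were added after their values were seen.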

Additional observations from a re-analysis of the deposited data

How the results depend on the processing

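Over 12 alternatives the sign of the log2 fold change turned for 8 of the 39 tested members. The count of members under the threshold, 3 of 39, became 7 with DESeq2, 5 with the replicate block and 0 to 4 when 1 library was left out. It includes B3GALT5 and ST6GAL1, from which nothing is read. Besides these, 1 became 5 with DESeq2, 3 with the replicate block, 0 with limma-voom, 0 without robust dispersions and 0 to 2 when 1 library was left out. Over all genes the 317 calls became 1225 with DESeq2, 963 with the replicate block, 131 with limma-voom, 131 without robust dispersions and 0 to 451 when 1 library was left out. In the 9 glycosylation lists the 1 call became 2 without the expression filter and 2 with a stricter one, 6 with the replicate block, 6 with DESeq2, 0 with limma-voom, 0 without robust dispersions and 0 to 2 when 1 library was left out. Over all tested genes the shares called were 2.25% at the main setting, 8.68% with DESeq2, 6.83% with the replicate block and 0.929% with limma-voom. They were 0.929% without robust dispersions, 2.2% without the expression filter and 2.96% with a stricter one. The cause of the shifts between settings was not tested.

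B3GALT5 and ST6GAL1 had log2 fold changes of 1.86 to 1.93 and 1.60 to 1.69 over the 12 alternatives. Both were chosen from these same libraries, so these ranges are no support. The members whose sign turned did so only when 1 library was left out, where values ran from -0.19 to 0.045 for B4GALT1, -0.17 to 0.048 for B4GALT2, -0.51 to 0.44 for B4GALT3, -0.21 to 0.35 for B4GALT6, -0.14 to 0.25 for B4GALT7, -0.22 to 0.064 for FUT1, -0.051 to 1.01 for FUT2 and -0.13 to 0.17 for ST6GALNAC6. None of these was called.

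The labels do not say that replicate numbers pair the samples. Deviations of same-numbered libraries correlated at -0.0895 across genes, which are not independent. That value cannot tell whether the numbers mark pairs, and pairing was not tested. With the replicate block the members called besides B3GALT5 and ST6GAL1 were FUT11, FUT8 and B3GNT5. Each setting with 1 library left out leaves 1 group with a lone library, assumed to vary like the other group. The 13 members that failed the expression filter had too few counts for a test.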
